A study of Homo sapiens with 6 samples.

Results

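The most distal polyadenylation site of a 3' UTR, with a polyadenylation signal beside it, was examined in 1191 genes of the human prostate cancer cell line LNCaP. These sites were the rows of the authors' deposited site table with the type code L and a named signal class, and they were 1191 of the 4903 sites and 1 site in each of 1191 of the 3118 genes listed. Another 47 sites of type L, listed without a signal or as A-rich, were left out of the 1238. The codes are not defined in the sources used here, and L was read as the most distal one in a 3' UTR. In all 729 genes with another 3' UTR site listed, the last site lay 25 to 15125 bases downstream of the most used one.

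LNCaP is an established, androgen-sensitive cell line. The cells were transfected in 2 rounds with 50 nM small interfering RNA over 48 h: a control labelled siSCR (siCTRL in the titles and here), an siRNA against Sam68 (siSAM68, gene KHDRBS1) or an siRNA against XRN2 (siXRN2), with 2 libraries in each group. 3' ends of polyadenylated RNA were sequenced by 3'READS, which traps the end of the transcript and so locates the cleavage site. No other allele or agent is named, and the cells of all groups are of the same line. The design asks how the choice of site changes when Sam68 or XRN2 is silenced.

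A pre-mRNA is cleaved downstream of a hexamer, most often AATAAA or its weaker variant ATTAAA, which is bound by the cleavage and polyadenylation specificity factor, and a poly(A) tail is added at the cut. Many genes carry several such sites in a row in the 3' UTR, and cleavage at the last one gives the longest 3' UTR, with any microRNA or protein binding sites it holds. Sam68 is a STAR-family RNA-binding protein with roles in splicing and 3' end choice, and XRN2 is the nuclear 5'-to-3' exonuclease that degrades the RNA left behind after cleavage and takes part in transcription termination.

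The signal beside 835 of the 1191 sites (70.1%) was AATAAA, beside 201 (16.9%) ATTAAA and beside 155 (13.0%) another signal. AATAAA stood beside 67.4% of all last sites, 41.8% of all first and 46.2% of all middle sites of the table. The following 30-base stretches, with the signal in capitals, show the signal regions of the upstream and the last site in 7 genes on which the results turn. They were chosen as pairs whose signals were found in place in a transcript. They were read from GENCODE v29 transcripts on GRCh38 by the deposited transcript identifier, 5′ to 3′ on the strand of the gene. The transcript's end was taken as the last site and the upstream site was placed by the deposited spacing, because no genome of the deposited build, hg19, was used. The cleavage site lies 18 to 31 bases after the first base of the signal, which is the end of the stretch for both C15orf17 sites and the last TNFAIP3 site and beyond the printed bases for the rest.
PDIA6 upstream: tccattaaagAATAAAatattttggacaat
PDIA6 last: aacttaaaaaAATAAAtacaactgtcacta
SCARB2 upstream: gcaagtatttAATAAAcccttgtatagtaa
SCARB2 last: atgtttcattAATAAAaaaccactttatat
C15orf17 upstream: gagcaagtctAATAAAaagatacggcctta
C15orf17 last: acatttataagAATAAAtgcaatcacacta
CD164 upstream: ttagataactATTAAAggttgttaagatga
CD164 last: actgacttaaAATAAAtctacatgtttatt
PSMD14 upstream: gtcgtatttaAATAAAgcaacgaaaaacgc
PSMD14 last: tcacttacaaAATAAAatacatttacagtc
TNFAIP3 upstream: ccagctatgtAATAAAaaactatactctgt
TNFAIP3 last: tcaacattaaaaAATAAAttatttaagaac
XRN2 upstream: agtagtttttAATAAAactacagtactttg
XRN2 last: agtaaaaaaaAATAAAgttaaacttttaaa
The deposited hg19 cleavage positions, on the strand of the gene, are chr2:10923987 and chr2:10923517 for PDIA6 (minus strand, 470 bases apart), chr4:77082605 and chr4:77079890 for SCARB2 (minus, 2715), chr15:75193307 and chr15:75192333 for C15orf17 (minus, 974) and chr6:109688482 and chr6:109687721 for CD164 (minus, 761). They are chr2:162267932 and chr2:162268228 for PSMD14 (plus, 296), chr6:138203730 and chr6:138204447 for TNFAIP3 (plus, 717) and chr20:21370087 and chr20:21370463 for XRN2 (plus, 376). The type codes of all of these were read here as 3' UTR sites. In 6 of the 7 genes AATAAA stands at both sites, and CD164 has ATTAAA upstream.

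A transcript was matched for 1157 of the 1191 sites. Of the 813 matched AATAAA sites, 651 (80.1%) had AATAAA in the last 40 bases of the transcript, against 33 (4.06%) in the 40 bases that end 50 bases further upstream. Of the 195 matched ATTAAA sites, 128 had ATTAAA in the last 40 bases, against 10 in the shifted window. The upstream signal lay in place in 260 of 310 pairs (83.9%), against 7 in the shifted window. Only the transcript's own strand was searched, and the share of other transcripts that hold these letters was not computed.

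Usage is the share of a gene's reads in a library that fall on a site, deposited as a percent. Reads in the listed genes of the expression table numbered about 244707 and 447362 (siCTRL), 674072 and 788203 (siSAM68) and 597972 and 1599825 (siXRN2), so the controls were the shallowest. KHDRBS1 had 601 and 741 rescaled RPM (reads normalised to depth) in siCTRL, 53.8 and 27.5 in siSAM68, with 895 and 567 in siXRN2. The expression table does not list XRN2, and its knockdown was not analysed here. Of 9 LNCaP markers looked for, 8 were in the expression table, and none of 23 stromal, endothelial, immune and neuroendocrine markers was in either table. Both tables are selected lists. On the authors' deposited score, 999 of the 1191 last sites (83.9%) and 3975 of all 4903 sites reach 1.3 in size in a comparison. Adjusted p-values can therefore be too small. The series' text calls the 2 libraries of a group biological replicates and says no more of how they were grown.

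Last sites had a higher median usage in the knockdown libraries than in the controls. Their median usage was 43.8% and 46.2% in the siCTRL libraries, 50.0% and 49.8% in the siSAM68 libraries, and 48.8% and 48.1% in the siXRN2 libraries. The knockdown libraries all lay above both controls, and the replicates differed by a pooled SD of 1.03 percentage points. First sites with a signal had medians of 33.6% and 32.2% in siCTRL, 28.8% and 29.9% in siSAM68, with 30.0% and 32.4% in siXRN2. Middle sites with a signal stayed between 18.8% and 20.0% in all libraries.

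**Figure D1:**
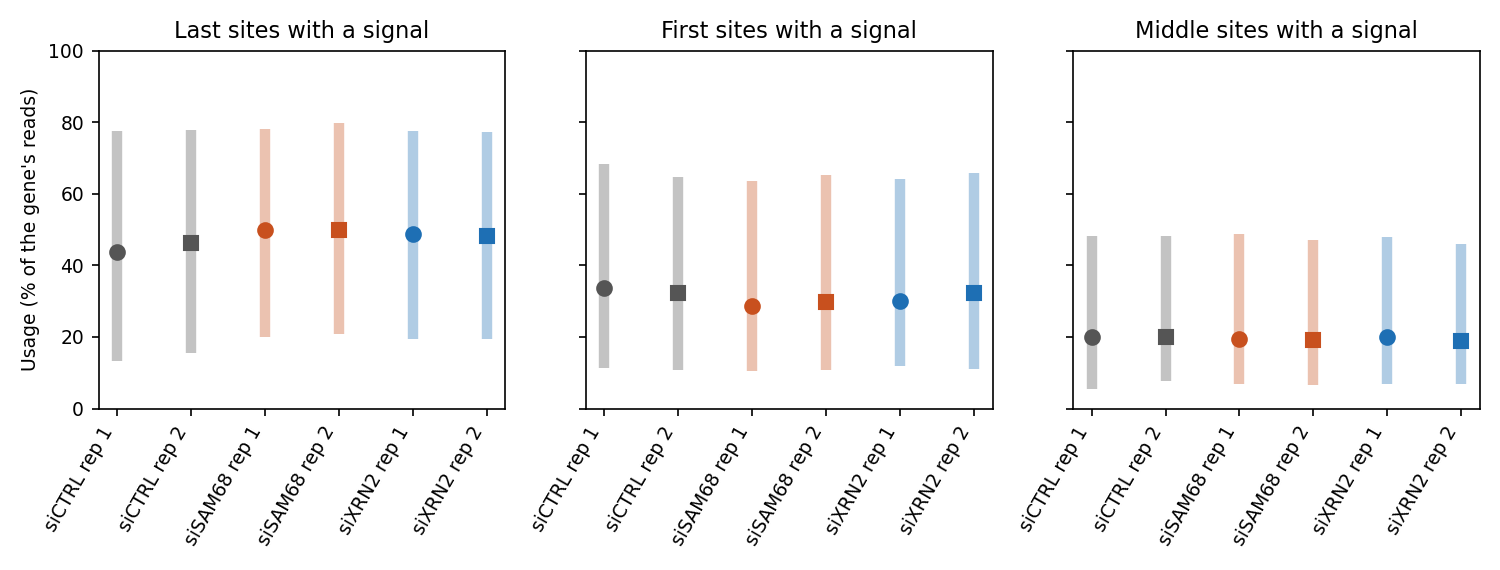
Usage in percent of a gene's reads, per library, for last, first and middle 3' UTR sites with a signal; points are medians over sites and bars run from the lower to the upper quartile. Last sites have medians of 43.8% and 46.2% in siCTRL and between 48.1% and 50.0% in the knockdown libraries.

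The lower quartile of last-site usage was 13.3% and 15.4% in siCTRL, 20.0% and 20.8% in siSAM68, with 19.4% and 19.5% in siXRN2. The upper quartile lay between 77.2% and 79.7% in all libraries, so the groups stood further apart among little-used sites than among much-used ones. The number of last sites listed at 0 was 116 and 76 in siCTRL, 36 and 34 in siSAM68, with 45 and 12 in siXRN2. The number at 100% was 96 and 65 in siCTRL, 49 and 43 in siSAM68, with 45 and 13 in siXRN2. Values at either end were thus commonest in the shallow controls, and the part of depth in the counts was not tested. In the 181 genes with at least 20 reads in every library the median change after siSAM68 was 5.08 points, beside 4.92 points over all.

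After Sam68 silencing, 107 last sites rose and 52 fell of the 1190 that passed a filter of 1% mean usage. The change was tested with limma on log2(percent + 1) over all listed sites, and a call is a Benjamini-Hochberg adjusted p under 0.05. The 159 calls are 13.4% of the last sites, where 14.6% of all sites tested were called, 8.68% higher and 5.96% lower; among last sites the shares were 8.99% and 4.37%. The share of changed last sites was thus near that of the whole table. The median change of a last site was 4.92 percentage points, with quartiles of -9.2 and 15.0, beside -0.88 points over all sites, -3.36 over first and -0.43 over middle sites with a signal. Sites of a gene share a total, so these medians depend on each other. The siSAM68 and siCTRL values did not overlap for 935 of 1178 last sites (79.4%), where 76.2% of all sites did not overlap, with 538 higher and 397 lower.

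Without either siSAM68 library none of the 159 last sites passed, with a lowest limma adjusted p of 0.0729 and 0.0726. Without siCTRL replicate 1, 34 of the 159 passed and 55 last sites in all; without siCTRL replicate 2, 93 passed and 226 in all. The direction was the same in 156 to 159 of the 159. The authors' deposited score reached 1.3 in size for 733 last sites, where 56.9% of all sites with a score reached it.

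Of the 243 last sites in genes of the expression table, where reads are known, 21 were called, 17 higher and 4 lower (8.64%). Of the 181 with at least 20 reads in every library, 13 were, 10 higher and 3 lower (7.18%), where 14.6% of all sites were called. These 13 genes were singled out after their values were seen. For 948 last sites the reads are not known, because their genes are not in the expression table.

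SCAMP2 encodes a membrane protein of recycling vesicles after the Golgi. Its last site took 52.8% and 60.0% of reads in siCTRL, 86.9% and 89.9% in siSAM68, with 87.9% and 93.3% in siXRN2. The controls lay below all 4 knockdown libraries, and the usage rose by 32.0 points after siSAM68 (log2 change 0.64, SE 0.08, limma adjusted p = 0.0211). It was the gene with the largest rise among the 13, on 36 to 448 reads a library. The upstream site, 1124 bases before it in an A-rich stretch, took 47.2% and 40% in siCTRL and 13.1% and 10.1% in siSAM68.

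PDIA6 encodes a disulfide isomerase of the endoplasmic reticulum, which helps proteins fold. Its last site took 11.8% and 13.0% in siCTRL, 37.0% and 39.3% in siSAM68, with 31.3% and 36.4% in siXRN2, on 366 to 2325 reads. The log2 change after siSAM68 was 1.55 (SE 0.24, limma adjusted p = 0.0293). The 2 sites shown above hold all listed usage of the gene, with 88.3% and 87.0% on the upstream one in siCTRL and 63.0% and 60.7% in siSAM68.

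SCARB2 encodes the lysosomal membrane protein that carries beta-glucocerebrosidase to lysosomes. The last site took 45.1% and 41.2% in siCTRL, 69.2% and 74.4% in siSAM68, with 66.9% and 62.6% in siXRN2. The usage rose by 28.6 points after siSAM68 (log2 change 0.72, SE 0.10, limma adjusted p = 0.0244), on 91 to 825 reads.

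C15orf17, listed as family with sequence similarity 219 member B, took 52.2% and 47.9% at its last site in siCTRL, 76.8% and 72.9% in siSAM68, with 73.3% and 77.1% in siXRN2 (23 to 323 reads). CD164, a sialomucin of endosomes and lysosomes, took 46.3% and 40.8%, then 64.3% and 64.1%, then 58.6% and 55.6% in the same order. In both genes the control values lay below the 4 others. XPO1, the exportin that carries proteins out of the nucleus, took 41.7% and 48.7% in siCTRL and 69.0% and 67.1% in siSAM68. TOMM70A, an import receptor of the mitochondrial outer membrane, took 42.1% and 44.4% in siCTRL and 66.6% and 72.7% in siSAM68. NAAA, a lysosomal hydrolase of N-acylethanolamines, took 30.9% and 30.1% in siCTRL and 48.8% and 52.4% in siSAM68. In these genes the rise after siSAM68 ran from 20.1 to 26.4 points. THRB, a thyroid hormone receptor, was listed at 0 in both siCTRL libraries and took 23.8% and 5.06% in siSAM68, which differ widely (limma adjusted p = 0.0489, and 0.0651 with a pseudocount of 5).

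Falls were seen in MAU2, CBR1 and ACTL6A. MAU2, which loads cohesin on chromosomes together with NIPBL, took 85.0% and 78.8% at its last site in siCTRL, 54.7% and 49.6% in siSAM68, with 60.0% and 56.4% in siXRN2. Usage fell by 29.8 points after siSAM68 (log2 change -0.64, SE 0.09, limma adjusted p = 0.0275). CBR1, a carbonyl reductase, took 92.5% and 93.2% in siCTRL, 77.1% and 73.5% in siSAM68, with 93.9% and 88.0% in siXRN2, so siXRN2 overlapped siCTRL there. ACTL6A, an actin-like subunit of chromatin remodellers, took 90.9% and 76.5% in siCTRL and 62.0% and 60.7% in siSAM68 (limma adjusted p = 0.0489). Without siCTRL replicate 1, 3 of the 13 genes passed (C15orf17, SCAMP2 and SCARB2); without siCTRL replicate 2, 9 passed.

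**Figure D2:**
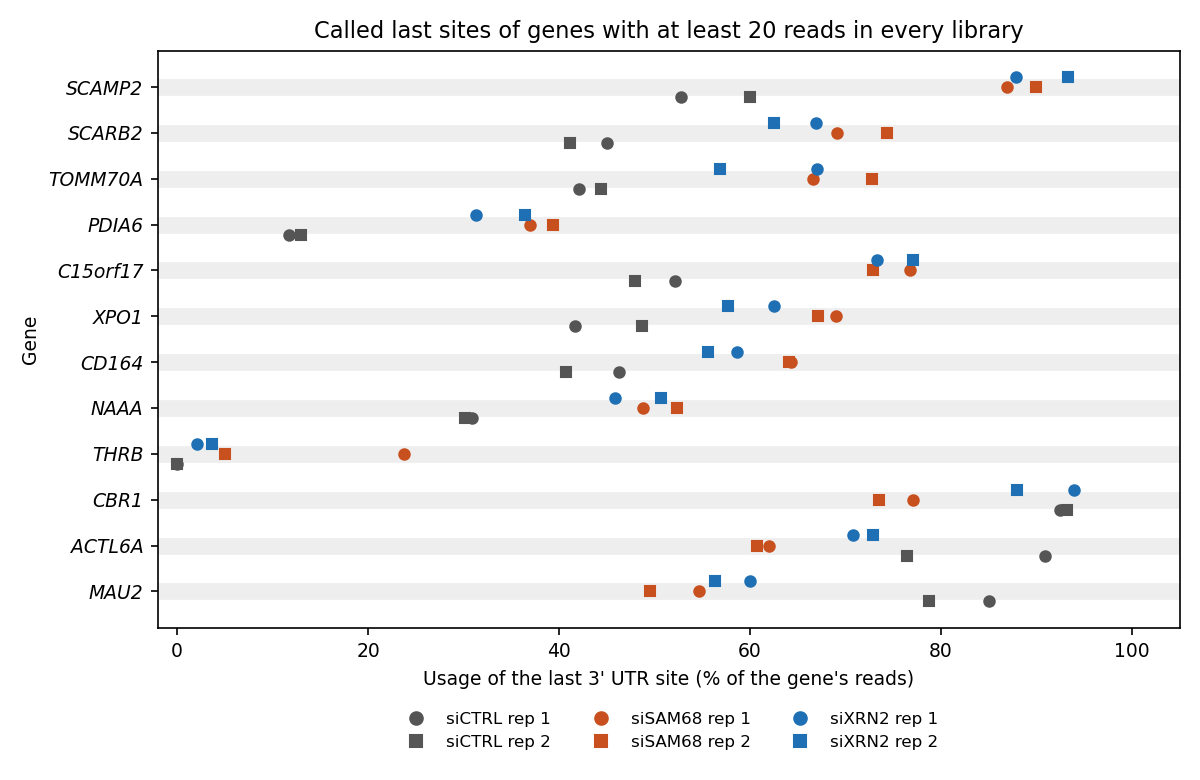
Usage of the last site in percent, one row per gene, for 12 of the genes called after siSAM68 with at least 20 reads in every library; each point is a library, with circles for replicate 1 and squares for replicate 2. In SCAMP2, PDIA6, SCARB2 and C15orf17 both siCTRL libraries lie below all 4 knockdown libraries, and in MAU2 above them.

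The largest gains after siSAM68 among all called last sites lay in genes with unknown reads. They included CHUK, KITLG, TNFAIP3, AHRR, ZNF184, FBXL12, ZNF503, FOXJ2, AGA, PSMD14 and IKZF2. TNFAIP3, which encodes the A20 brake on NF-kappaB, was listed at 0 at its last site in both siCTRL libraries and took 72.2% and 78.9% in siSAM68 and 33.3% and 30.0% in siXRN2. Its upstream site held 100% in both controls, 27.8% and 21.1% in siSAM68, with 66.7% and 70.0% in siXRN2. PSMD14, a deubiquitinase in the lid of the proteasome, took 23.1% and 35.3% in siCTRL, 75% and 76.9% in siSAM68, with 80.9% and 70.5% in siXRN2. Its upstream site took 69.2% and 52.9% in siCTRL and 3.12% and 13.5% in siSAM68. AGA, a lysosomal amidase, took 33.3% and 50.0% in siCTRL and 95.6% and 84.0% in siSAM68.

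CHUK, the kinase IKK-alpha, was listed at 0 in siCTRL and took 100% and 83.3% in siSAM68. KITLG, the ligand of the receptor KIT, was listed at 0 in siCTRL and took 100% and 60.0% in siSAM68. Values such as 0, 33.3%, 50.0% and 100% are ratios of small whole numbers, and the reads behind them are not known. In all, 55 last sites were listed at 0 in both siCTRL libraries, against 14 in both siSAM68 libraries and 9 in both siXRN2 libraries. Of the 55, 36 were above 0 in all 4 knockdown libraries, and the depth is known for 7. Calls were made for 32 of the 55 after siSAM68 and 24 after siXRN2, where 14.6% and 5.19% of all sites were called. The 55 were picked by their 0 in the shallow controls, so higher values elsewhere follow in part from that choice.

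In the same ranking the 8 largest falls after siSAM68 were in DUSP19, KIF5C, MED26, EHHADH, TRIM2, CHEK2, AFAP1 and STXBP3, also with unknown reads. KIF5C, a heavy chain of the motor protein kinesin, took 100% and 60.0% in siCTRL, was listed at 0 in both siSAM68 libraries, and took 12.5% and 14.3% in siXRN2. CHEK2, a checkpoint kinase of the DNA damage response, took 100% in both siCTRL libraries, 33.3% and 50.0% in siSAM68, with 100% and 72.7% in siXRN2. AFAP1, which binds actin filaments, took 87.5% and 83.3% in siCTRL, 28.6% and 26.3% in siSAM68, with 100% and 69.4% in siXRN2. The siXRN2 values of CHEK2 reached its siCTRL values, and those of AFAP1 lay on both sides of them.

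After XRN2 silencing, 49 last sites rose and 15 fell of 1190. The 64 calls are 5.38% of the last sites, where 5.19% of all sites were called, 3.79% higher and 1.40% lower. The share was near that of the whole table. The median change was 3.07 points, beside -0.96 over all sites and -2.79 over first sites with a signal. The groups did not overlap for 854 of 1179 last sites (72.4%), where the share over all sites was 71.1%. Without either siXRN2 library none of the 64 passed; without siCTRL replicate 1, 16 of them did and 29 last sites in all, and without siCTRL replicate 2, 35 did and 114 in all. This comparison shares the siCTRL libraries with the one after siSAM68, so their values are given side by side and not counted as separate support.

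Of the genes with at least 20 reads in every library, 5 rose after siXRN2 and none fell (2.76% of 181, where 5.19% of all sites were called). An unadjusted limma p under 0.05 was found for 73 of the 181, beside 1875 of all 4860 sites tested. Those that rose included SCAMP2, C15orf17, SCARB2 and PDIA6, whose values stand above. The rise was 34.2 points in SCAMP2 (limma adjusted p = 0.0292), 25.1 in C15orf17 (0.0361), 21.6 in SCARB2 (0.0467) and 21.5 in PDIA6 (0.0449). Without siCTRL replicate 1 SCAMP2 alone of the 5 passed, and without siCTRL replicate 2 SCAMP2, C15orf17 and PDIA6 did and SCARB2 did not. With a pseudocount of 5, 3 of the 5 passed, and SCARB2 (limma adjusted p = 0.0573) and PDIA6 (0.0558) did not.

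Ranked in the same way, the largest gains after siXRN2 included FOXJ2, KITLG, ZNF503, JAZF1, CHUK, PSMD14, ZNF611, FBXL12 and CLCN2. The 8 largest falls were ZNF354B, KIF5C, ZNF709, C8orf37, LATS2, KCTD10, PTER and TBC1D25. The reads of all of these are unknown. LATS2, a kinase of the Hippo pathway, took 100% in both siCTRL libraries, 73.7% and 93.3% in siSAM68, with 50.0% and 56.3% in siXRN2. KCTD10, an adaptor of a cullin ubiquitin ligase, took 50.0% and 25.0% in siCTRL, 7.69% and 9.52% in siSAM68, with 0 and 1.28% in siXRN2. PTER, related to phosphotriesterases, took 50.0% and 32.1% in siCTRL, 15.9% and 14.6% in siSAM68, with 5.71% and 8.24% in siXRN2. In LATS2, KCTD10 and PTER the siXRN2 values lay below all others. ZNF354B has no value in siSAM68 replicate 2, so only 1 siSAM68 library entered its fit.

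Between siSAM68 and siXRN2 none of the 1190 last sites passed with limma (0% of all sites). An unadjusted limma p under 0.05 was found for 127 of them, beside 642 of all 4864 sites tested. Without the mean-variance trend 5 passed, named here after their values were seen: EXD2, KIF5C, RNF180, XRN2 and ZNF354B. In XRN2 itself the last site read 0 in siCTRL and siXRN2, in each of the 4 libraries, and took 10.7% and 20.0% in siSAM68; its adjusted p against siXRN2 was 0.120 with the trend and 0.0409 without. The 4 sites with the smallest unadjusted p in each direction were CFDP1, RECQL, XRN2 and ZNF354B, higher in siSAM68, and AFAP1, EHHADH, KIF5C and RNF180, lower, none of them called. RECQL, a RecQ helicase, took 75% and 80.0% in siSAM68, 50.0% and 45.0% in siXRN2, and 40% and 46.2% in siCTRL. The reads behind the RECQL and XRN2 sites are not known.

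Tandem pairs compare the last site with the most used other 3' UTR site of the gene. Of 729 pairs, 726 were tested, and after siSAM68 the ratio rose in 181 and fell in 122 (41.7% called, where 41.8% of all 752 pairs of the table were called, 24.9% higher and 16.9% lower). The median change of the log2 ratio was 0.68. After siXRN2 it rose in 71 and fell in 49 (16.5%, where 16.8% of all pairs were called, 9.97% higher and 6.78% lower), with a median of 0.53. In 244 of the 729 pairs the pair held at least 99% of the gene's usage in every library, so that the last site could gain only from its partner. Leaving out a library moved the calls after siSAM68 to 54 without siCTRL replicate 1, 243 without siCTRL replicate 2, 10 without siSAM68 replicate 1 and 23 without siSAM68 replicate 2. After siXRN2 they came to 33, 136, 7 and 13 without siCTRL replicate 1, siCTRL replicate 2, siXRN2 replicate 1 and siXRN2 replicate 2.

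**Figure D3:**
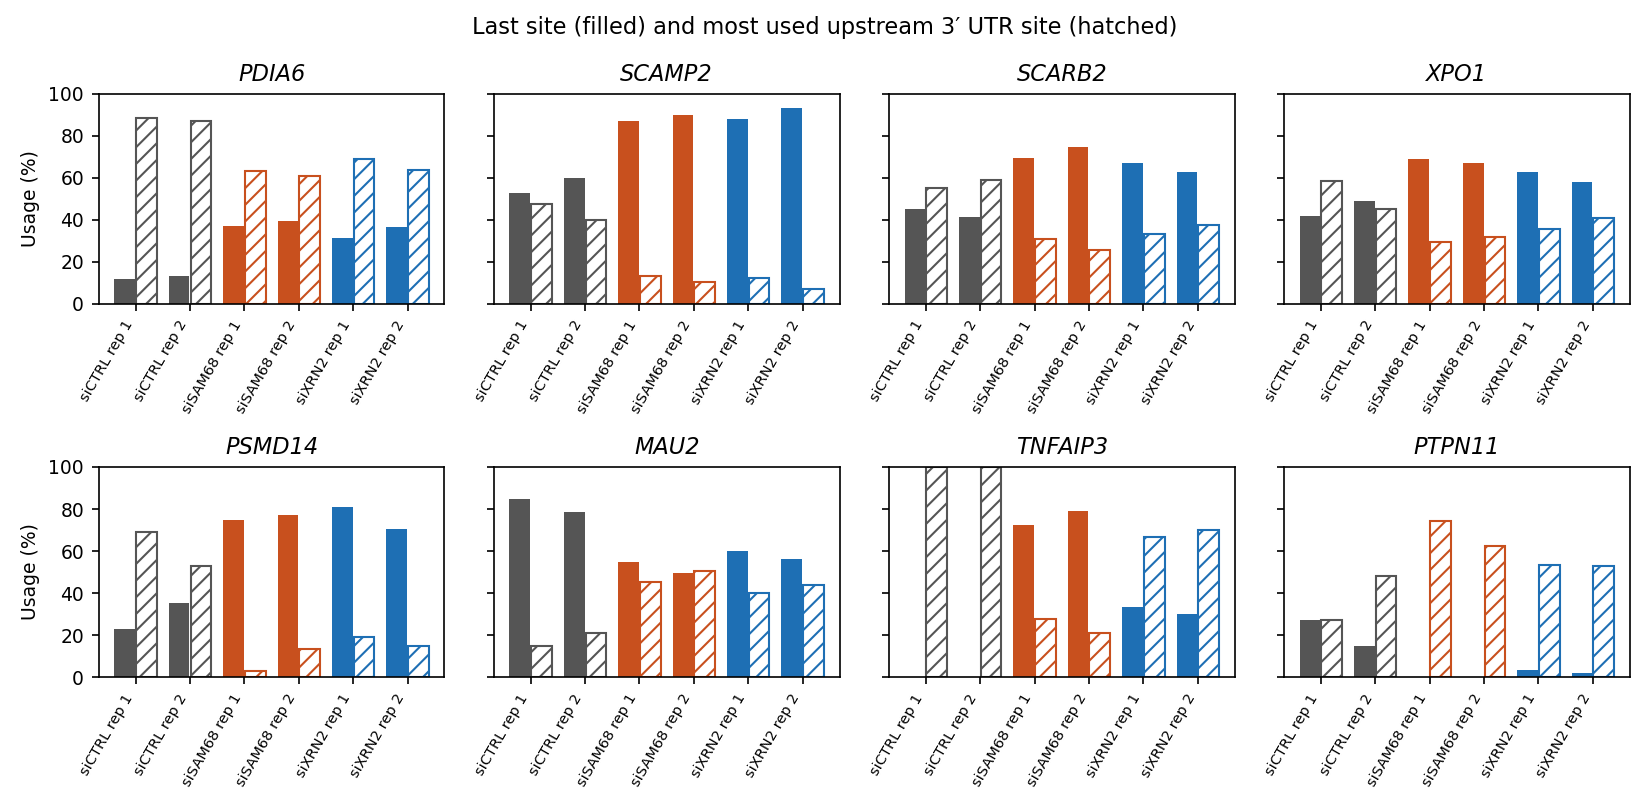
Usage in percent of the last site (filled bars) and the most used upstream 3' UTR site (hatched bars) in each library for 8 genes. In PDIA6, SCAMP2, SCARB2, XPO1, PSMD14 and TNFAIP3 the filled bars are higher in all 4 knockdown libraries than in siCTRL, and in MAU2 and PTPN11 they are lower.

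By pair of signals, the median log2 ratio change after siSAM68 was 0.49 where AATAAA stood at both sites (227 pairs, as in PDIA6 and SCARB2), 0.89 where it stood at the last only (266, as in CD164), -0.17 where it stood at the upstream only (102) and 0.72 where it stood at neither (134). After siXRN2 the medians were 0.45, 0.68, -0.15 and 0.53. The ratio rose after siSAM68 in 75 and fell in 40 of the pairs with AATAAA at the last site only, and rose in 25 and fell in 24 of those with it upstream only. These calls are 43.6% and 48.0% of the tested pairs, where 41.8% of all pairs were called. These are descriptions, and the difference between the classes was not tested.

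By the signal at the last site alone, the median change after siSAM68 was 5.2 points for AATAAA (73 rose, 39 fell), 6.725 for ATTAAA (19 rose, 6 fell) and -1.22 for other signals (15 rose, 7 fell). After siXRN2 it was 3.91 points (33 rose, 9 fell), 3.62 (10 rose, 3 fell) and -3.33 (6 rose, 3 fell). The calls after siSAM68 were 13.4%, 12.5% and 14.2% of these classes, where 14.6% of all sites were called. The calls after siXRN2 were 5.03%, 6.5% and 5.81%, where 5.19% of all sites were called. The 21 last sites with another signal and at least 20 reads in every library had medians of 6.27 points after siSAM68 and 2.69 after siXRN2, the opposite sign to the whole class. The lower medians of that class are thus not seen in these genes. In genes of that depth the median was 3.31 points for AATAAA after siSAM68 (130 sites) and 0.97 for ATTAAA after siXRN2 (30 sites). Without siCTRL replicate 1 the median of the other signals was -1.42 after siSAM68 and -1.39 after siXRN2, and that of AATAAA after siXRN2 was 2.60; without siXRN2 replicate 2 the other signals had -1.60.

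Distance from the upstream site went with how much the last site was used. In siCTRL the last site took a median of 53.4% at 25 to 217 bases, 49.9% at 219 to 761, 30.9% at 771 to 1892 and 30.8% at 1905 to 15125. The median change after siSAM68 was -0.15, 5.19, 7.31 and 5.18 points over these ranges, and after siXRN2 -0.74, 2.03, 5.85 and 5.07. The calls after siSAM68 numbered 11 higher and 7 lower, 14 and 9, 23 and 6, and 17 and 6. They were 9.84%, 12.6%, 15.9% and 12.7% of the sites in these ranges, where 14.6% of all sites were called. In genes with at least 20 reads in every library the medians after siSAM68 were 6.19, 5.37, 6.53 and -2.78 points, over 33, 39, 32 and 37 sites. The low value at the shortest distance was therefore not seen there, and at the longest distance the sign turned. After siXRN2 the medians of these genes were 3.19, 2.65, 2.22 and 1.08 points, so the higher values at long distances were not seen there either. At 25 to 217 bases the sign after siSAM68 also turned without siSAM68 replicate 2 (0.87 points), without siCTRL replicate 1 (1.08) and without siCTRL replicate 2 (1.60). After siXRN2 it turned in that range without siCTRL replicate 2 (1.28). Without siCTRL replicate 1 the median at 219 to 761 bases was 3.21 after siSAM68 and 1.23 after siXRN2 (3.91 without siCTRL replicate 2), and at 1905 to 15125 bases it was 3.19 after siXRN2.

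**Figure D4:**
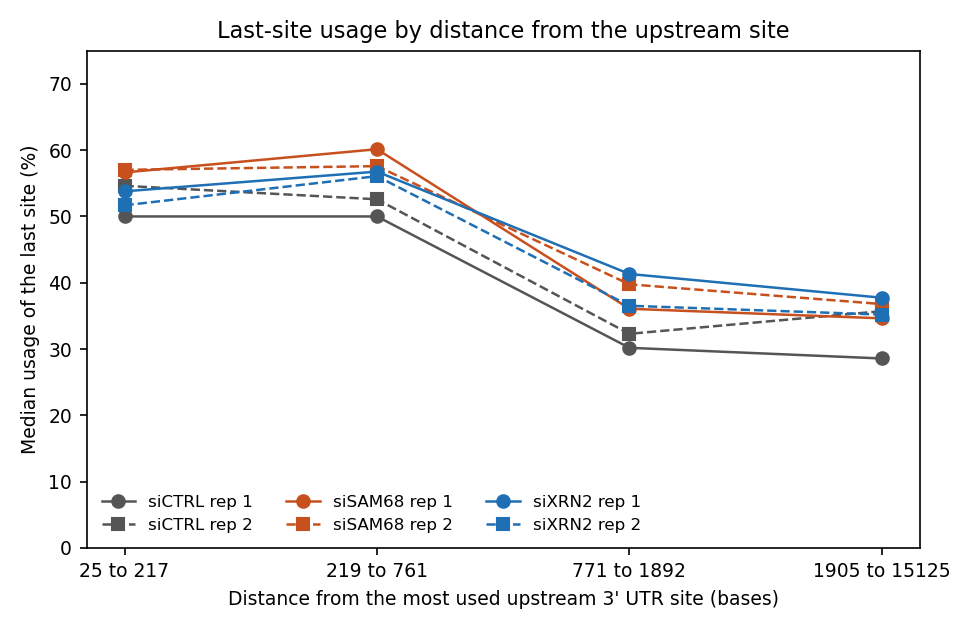
Median usage of the last site in percent, per library, by the distance in bases from the most used upstream 3' UTR site, in ranges of 182 or 183 sites. In siCTRL the group medians fall from 53.4% at the shortest to 30.8% at the longest distances, and siCTRL replicate 1 lies lowest at every distance.

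By the other sites listed for the gene, the last sites comprised 696 with an upstream 3' UTR site, 33 with both an upstream and an intronic site, 92 with an intronic site only, 3 with a site of another class and 367 with no other site listed. The median change after siSAM68 was 5.21 points with an upstream site (62 rose, 27 fell), 9.09 with an intronic site (15 rose, 5 fell), -0.35 with both (3 rose, 1 fell) and 2.90 with none (27 rose, 19 fell). The calls were 12.8%, 21.7%, 12.1% and 12.5% of these classes, where 14.6% of all sites were called. In the last class the rest of the usage lay on sites that the table does not show. The 8 sites with an intronic competitor and at least 20 reads in every library had a median of -1.59 points, the 134 with an upstream site 3.48 and the 32 with no other site 6.22. PAPOLA, the poly(A) polymerase, belongs to the intronic class: its last site took 8.18% and 8.11% in siCTRL, 23.3% and 30.3% in siSAM68, with 15.6% and 14.8% in siXRN2 (limma adjusted p = 0.0411 after siSAM68). The reads of PAPOLA are not known.

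Of 14 gene lists, 12 held last sites, 3 to 13 each, and 7 of the 79 last sites on them (8.86%) were called after siSAM68, in 6 lists, and 2 (2.53%) after siXRN2, in 2 lists. Over all sites 14.6% and 5.19% were called, so the lists hold no larger share. Among 5 sites of cleavage, polyadenylation and termination genes, PAPOLA and XRN2 rose after siSAM68 and none fell, with a median of -0.14 points. Of 3 endoplasmic reticulum stress genes PDIA6 rose, of 11 chromatin and transcription regulators MAX rose, and of 4 mitotic genes SMC2 fell. Of 12 growth signalling kinases and phosphatases PTPN11 fell after siSAM68 and LATS2 after siXRN2, and of 3 CDK inhibitor and p53 genes CHEK2 fell after siSAM68. None of the last sites of 13 vesicle and membrane traffic genes, 9 splicing and RNA-binding genes, 6 androgen response genes, 6 ubiquitin genes, 5 studied tandem 3' UTR genes or 3 replication genes was called.

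MAX, the dimer partner of MYC, took 23.8% and 16.5% at its last site in siCTRL, 54.7% and 46.3% in siSAM68, with 42.0% and 36.1% in siXRN2. PTPN11, the phosphatase SHP2, took 27.3% and 14.8% in siCTRL, was listed at 0 in both siSAM68 libraries, and took 3.33% and 2.04% in siXRN2. SMC2, a core subunit of condensin, took 11.8% and 11.4% in siCTRL, 0 and 0.85% in siSAM68, with 4.48% and 6.61% in siXRN2, on 18 to 242 reads. For each of the 3 genes siCTRL stood apart from all knockdown libraries. The reads behind the MAX and PTPN11 sites are not known.

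Expression was known for 243 of the host genes. After siSAM68, 113 were higher and 31 lower (59.3% called, where 58.8% of the 1938 genes tested were called, 35.3% higher and 23.4% lower). The median log2 change was 0.43, beside 0.16 over all genes. With median-of-ratios scaling it was 0.27, beside 0.00. Under that scaling 91 host genes were higher (37.4%) and 41 lower (16.9%), where 27.2% of all genes were higher and 28.2% lower. The 263 genes of the site table that host none of these sites had 110 higher and 37 lower and a median of 0.44. After siXRN2, 58 host genes were higher and 20 lower, where 33.3% of all genes were called, with a median of 0.18, beside 0.08 over all genes and 0.21 over those 263. With median-of-ratios scaling 46 were higher (18.9%) and 28 lower (11.5%), with a median of 0.09. Over all genes 17.8% were higher and 15.6% lower. Of the 17 genes whose last site rose after siSAM68, 11 were higher in expression, none lower and 6 not called; of the 4 whose last site fell, 3 were higher and 1 lower. Of the 222 whose last site was not called, 99 were higher, 30 lower and 93 not called. The difference between these classes was not tested. RPM is relative, so a change in a gene's RNA cannot be told apart from a change in the rest of the RNA. In these bulk libraries, a change in each cell and a change in how many cells express a gene cannot be told apart either. Without siSAM68 replicate 2 the calls fell to 51, without siSAM68 replicate 1 to 59 and without siCTRL replicate 1 to 63 of 144; after siXRN2 they fell to 23 without siCTRL replicate 1 and to 47 without siCTRL replicate 2 or siXRN2 replicate 2, of 78.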

How the data were processed

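3'READS libraries of LNCaP cells, 2 each of siCTRL, siSAM68 and siXRN2, were analysed from 2 tables. Per the submitters' processing notes, cutadapt, Bowtie2 and the build hg19 were used; the sources used here give no version, annotation or filter. The authors deposited site usage as a percent of a gene's reads (per the file headers), and a signed score per site and comparison whose definition is not given. The authors deposited RPM with 1 decimal, with 1 scaling for the libraries of a group; each library was rescaled to the listed total of its group. The steps of 0.492, 0.238 and 0.157 RPM gave approximate reads, too coarse for a count test.

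limma 3.58.1 in R 4.3.3 was fitted with all 6 libraries and a mean-variance trend on log2(percent + 1), on the log2 ratio of the last to the most used upstream 3' UTR site and on log2(RPM + 1), for sites of at least 1% mean usage and genes of at least 1 RPM. Log2 changes understate those of low values. Benjamini-Hochberg adjustment ran over the whole table, with a threshold of 0.05. Exact permutation of 2 against 2 libraries cannot go below p = 0.333, so none was used. Fits were tested on simulated data.

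The members and lists were chosen with earlier results of these data known. Named sites were the 12 largest gains and 8 largest falls after siSAM68, and 10 and 8 after siXRN2, among called sites without overlap. This ranking left out genes with known reads under 20 in any library compared. Between the knockdowns, where none was called, the 4 sites with the smallest unadjusted p each way were named. Called list members and, chosen after seeing the values, called genes with at least 20 reads were added. Some sites that meet this rule are not reported here. Whether the replicate numbers pair the libraries is not known, and the main fits took them as unpaired. Figures used matplotlib 3.10.9.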

Additional observations from a re-analysis of the deposited data

How the results depend on the processing

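Depth limits these values: reads are unknown for 948 of the 1191 last sites, and no count test could be run. Each group has 2 libraries, and leaving out 1 leaves a lone library that is assumed to vary like the others. Called last sites after siSAM68 numbered 159, and 86 with only the compared groups in the fit, 733 by the authors' deposited score, and 0 to 226 without 1 library. After siXRN2 they numbered 64, and 0 with only the compared groups, 573 by the authors' score, and 0 to 114 without 1 library. Between siSAM68 and siXRN2, 5 were called without the trend, against 0. Called pairs after siSAM68 were 303, and 143 with only the compared groups and 10 to 243 without 1 library; after siXRN2 they were 120, and 190 with a pseudocount of 5, 31 with only the compared groups and 7 to 136 without 1 library. Called host genes ranged from 51 to 118 after siSAM68 and from 23 to 83 after siXRN2 without 1 library. The median change of a last site was 3.58 to 5.12 points after siSAM68 and 2.29 to 3.51 after siXRN2. The cause of these moves was not tested.

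The replicate number as a block gave 32 called last sites after siSAM68 and 0 after siXRN2, and 169 and 9 called pairs. Same-numbered libraries showed almost no shared deviation in usage (r of 0.04, 0.02 and -0.002 between groups). Pairing is not excluded by this, because noise in percents of few or unknown reads can hide it. The same library numbers recur in the labels of every group, and the sources used here do not say whether they mark pairs. Under the block 143 and 81 host genes were called, and no last site differed between siSAM68 and siXRN2.

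Medians that turned sign in genes with at least 20 reads were those of other signals (6.27 and 2.69 points after siSAM68 and siXRN2), the shortest distances (6.19 and 3.19), the longest (-2.78 after siSAM68) and intronic competitors (-1.59 after siSAM68). At the shortest distances the sign also turned without 1 library, to between 0.87 and 1.60 points after siSAM68 and to 1.28 after siXRN2; siCTRL replicate 1 gave 1.08. After siXRN2 the median there lay between -0.67 and 1.28. With a pseudocount of 5, THRB after siSAM68 and PDIA6 and SCARB2 after siXRN2 no longer passed.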
